A study of Mus musculus with 18 samples.

Results

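The receptors of the signalling lymphocyte activation molecule (SLAM) family examined here were Cd244a, Slamf7, Slamf1 and Slamf6, and what was measured was the openness of the chromatin at their genes. Every peak of the larger deposited table whose gene symbol named one of them was taken, which gave 25 of 61224 peaks: 7 for Cd244a, 8 for Slamf7, 6 for Slamf1 and 4 for Slamf6. ATAC-seq, in which the transposase Tn5 cuts and tags accessible DNA, was carried out on 18 mouse libraries of sorted C57BL/6-strain cells. Of these, 9 were mPTCL, peripheral T-cell lymphomas of p53KO genotype sorted from liver, which arose when p53KO T cells were given to CD3KO hosts of the same strain. Normal NK cells, 3 libraries, were WT spleen cells with the CD27- CD11b+ phenotype. Normal NKT cells, 3 libraries, were WT liver cells positive for CD3 and for the CD1d tetramer with alpha Gal Cer, although their titles carry the letters Sp. Normal T cells, 3 libraries, were WT CD3+ thy1+ cells of the spleen. The lymphomas differed from every normal group in genotype and sort, and from NK and T cells in organ as well, and these differences cannot be told apart. The labels do not say whether replicate libraries stem from different mice or pools, or what other cells the CD3KO hosts kept, so p-values measure only the spread between these samples.

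SLAM receptors are membrane proteins of the immunoglobulin superfamily found on blood cells, and most of them bind the same receptor on a neighbouring cell; Cd244a instead binds Cd48. Their tails recruit the small adaptor SAP, encoded by Sh2d1a, or its relatives EAT-2 and ERT, encoded by Sh2d1b1 and Sh2d1b2, which turn contact between cells into activation or inhibition. Signals from Slamf1 and Slamf6 between thymocytes are needed for NKT cells to develop, while Cd244a (2B4) and Slamf7 (CRACC) are best known on NK and cytotoxic cells.

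The genes sit next to each other on chromosome 1. The first and last of the 25 peaks bounded a stretch of 380.8 kb, chr1:171559022-171939862 in mm10, with Cd244a first, then Slamf7, Slamf1 and Slamf6. All peaks were 500 bp long. Peaks are numbered here from low to high coordinate within each gene, so that on the reverse strand the Slamf7 promoter is its peak 8. The deposited annotation classed 5 peaks as promoter, 12 as intronic, 2 as exonic and 6 as flanking. Slamf7 peaks 1, 2 and 3 lay 4.04, 2.92 and 0.644 kb past the 3′ side of the RefSeq gene, and Slamf1 peak 1 lay 4.66 kb before its gene. Cd244a peaks 6 and 7 were assigned to Cd244a although they lay 25.3 and 28.5 kb past its RefSeq end. Cd244a peak 6 also carried the symbol Ly9, Slamf7 peak 3 Gm37787 and Slamf6 peak 2 Gm37065, so their counts cannot be given to a single gene.

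The RefSeq promoters of the 4 genes are shown because each overlapped a measured promoter peak (Cd244a peak 1, Slamf7 peak 8, Slamf1 peak 2 and Slamf6 peak 1) and those peaks carry several of the differences below. Each is 300 bases from GRCm38.p6, 5′ to 3′ on the strand of the gene, ending shortly after the start site, and capitals mark every match to 7 short motifs searched on both strands.
Cd244a: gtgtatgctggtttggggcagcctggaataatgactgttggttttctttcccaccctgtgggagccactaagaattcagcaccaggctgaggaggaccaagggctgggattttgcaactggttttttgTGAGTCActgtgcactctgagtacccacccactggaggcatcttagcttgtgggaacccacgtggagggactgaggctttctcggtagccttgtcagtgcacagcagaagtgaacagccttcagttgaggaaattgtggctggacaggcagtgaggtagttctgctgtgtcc
Slamf7: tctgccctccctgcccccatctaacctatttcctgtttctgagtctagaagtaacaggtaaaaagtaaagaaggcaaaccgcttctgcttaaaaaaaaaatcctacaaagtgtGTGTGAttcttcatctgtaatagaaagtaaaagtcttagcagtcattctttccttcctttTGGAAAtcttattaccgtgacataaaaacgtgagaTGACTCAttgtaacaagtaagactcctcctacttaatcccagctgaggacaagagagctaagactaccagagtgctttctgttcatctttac
Slamf1: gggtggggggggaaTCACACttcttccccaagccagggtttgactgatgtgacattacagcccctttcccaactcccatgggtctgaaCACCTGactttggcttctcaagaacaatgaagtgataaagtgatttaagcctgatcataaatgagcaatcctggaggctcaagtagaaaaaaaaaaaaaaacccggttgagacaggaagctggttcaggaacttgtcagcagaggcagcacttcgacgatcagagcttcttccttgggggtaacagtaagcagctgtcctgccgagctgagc
Slamf6: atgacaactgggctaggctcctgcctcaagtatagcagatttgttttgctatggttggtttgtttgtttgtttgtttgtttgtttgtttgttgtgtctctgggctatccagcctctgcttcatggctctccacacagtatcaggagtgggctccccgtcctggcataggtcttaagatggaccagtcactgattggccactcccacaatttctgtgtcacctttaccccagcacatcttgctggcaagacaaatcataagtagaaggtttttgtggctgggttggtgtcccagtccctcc
These promoters lie at chr1:171558943-171559242 on the forward strand for Cd244a, chr1:171648950-171649249 on the reverse strand for Slamf7, chr1:171766882-171767181 on the forward strand for Slamf1 and chr1:171917212-171917511 on the forward strand for Slamf6. With the deposited starts read as counted from 1, they shared 221, 215, 190 and 161 bases with their peaks. The AP-1 motif TGANTCA was present in the Cd244a and Slamf7 promoters and in 7.81% of 32851 RefSeq promoters of that length. The T-box motif TCACAC was present in Slamf7 and Slamf1 (14.5% of all promoters), the NFAT motif TGGAAA in Slamf7 (21.4%) and the E-box CAGGTG in Slamf1 (20.2%). ETS (CCGGAAG, 8.86%), RUNX (TGTGGT, 16.8%) and TCF and LEF (CTTTGAA, 5.14%) motifs had no match in these windows, and the Slamf6 promoter matched none of the 7. None of the matches overlapped another motif. A match describes letters only.

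Total counts in peaks ran from 670358 to 4844441 in mPTCL, 417107 to 596601 in NK, 1433904 to 9097014 in NKT and 979441 to 2358023 in T libraries. The 25 peaks together held only 83 to 151 counts in an NK library, where a single count was worth 1.586 to 2.108 CPM, so NK values are the least precise. For single peaks, CPM is the count over the library's TMM-scaled total, in the units of the deposited tables. For gene sums, markers included, CPM uses TMM-scaled totals of all gene sums, so it does not equal the added CPM of a gene's peaks. Chromosome 1 as a whole took 4.753% to 6.484% of counts in mPTCL (median 5.12%), against 6.409% to 7.145% in NK, 6.33% to 6.507% in NKT and 6.152% to 6.449% in T libraries. Chromosome 1 peaks had a median log2 difference of -0.26 between mPTCL and NKT while all peaks had 0.27. Values scaled within chromosome 1 are given beside the calls of mPTCL against a normal group that this scaling ended. Every marker gene measured had counts in each group. Summed over the measured markers, T-cell genes reached 305.6 to 535.5 CPM in mPTCL, 297.2 to 346.9 in NK, 803.6 to 904.6 in NKT and 521.6 to 632.6 in T libraries; NK genes reached 144.8 to 233.9, 180.2 to 225.5, 52.79 to 66.22 and 54.24 to 101.2 CPM in the same groups.

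Summed over each gene's peaks, accessibility moved in opposite directions within the cluster: mPTCL were higher than NKT and T cells at Cd244a, lower than both at Slamf6 and Slamf1, and between the 2 at Slamf7. The sum, in CPM, adds peaks and so depends on how many a gene has; it is compared across groups only. Of the 4 gene sums, 1 was higher and 3 were lower in mPTCL than in NKT, 2 were higher and 2 lower than in T, and 0 were higher and 1 lower than in NK (edgeR's quasi-likelihood test on all 20326 genes, Benjamini-Hochberg adjusted p below 0.05). Of all genes tested, 25.5% were called higher and 20.2% lower against NKT, 16.2% and 14.7% against T, and 11.2% and 10.3% against NK. Slamf7 was higher than in NK at an unadjusted p of 0.0306. Accessibility in sorted cells does not tell a smaller share of open cells from less opening per cell.

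**Figure D1:**
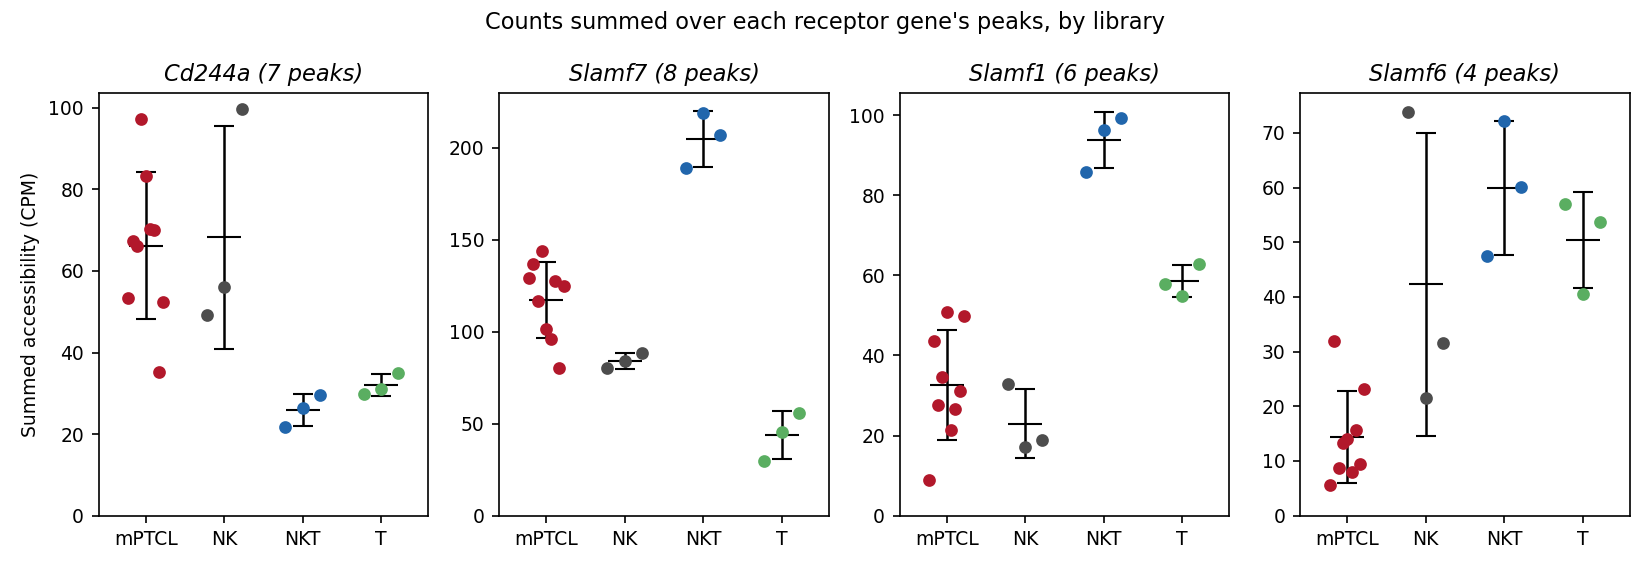
Counts summed over the peaks of Cd244a, Slamf7, Slamf1 and Slamf6 in each library, in CPM scaled on all gene sums, on axes that start at 0. Points are libraries and black bars are the mean ± SD of the 9 mPTCL, 3 NK, 3 NKT and 3 T libraries; the mPTCL lie above NKT and T at Cd244a and below NKT at the other 3 genes.

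Cd244a encodes 2B4, the NK and T cell receptor for Cd48. Its 7 peaks summed to 35.33 CPM at the lowest, 67.44 at the median and 97.25 at the highest in mPTCL, to 49.21, 56.02 and 99.61 CPM in NK, to 21.77, 26.37 and 29.54 CPM in NKT and to 29.83, 31.09 and 34.96 CPM in T libraries. On this scale all 9 mPTCL lay above every NKT and T library, and mPTCL and NK overlapped. With the scaling used for single peaks, mPTCL 8 fell among the NKT and T libraries. The log2 difference was 1.35 ± 0.25 (SE) over NKT (adjusted p = 0.000197) and 1.061 ± 0.26 over T (adjusted p = 0.0034). Over NK it was -0.04 ± 0.26 (adjusted p = 0.925). The call over T ended in the smaller deposited table (0.50, adjusted p = 0.356) and from the promoter peak alone (1.33, adjusted p = 0.0892). In order of mean level NK and mPTCL came first, then T and NKT. Every NKT library lay below every T library on the scale of gene sums, but not with the scaling used for single peaks. The NKT over T difference was not called (adjusted p = 0.676).

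The promoter, Cd244a peak 1, stood at 4.18 CPM at the lowest, 9.17 at the median and 23.4 at the highest in mPTCL, at 20.7, 16.9 and 15.9 CPM in NK, at 0, 2.88 and 3.29 CPM in NKT and at 8.52, 2.60 and 6.08 CPM in T libraries. Every mPTCL and NK library exceeded every NKT library, while mPTCL overlapped T. It was 2.14 ± 0.56 higher on the log2 scale in mPTCL than in NKT (adjusted p = 0.00324). The intronic Cd244a peak 2 was also called over NKT, at 1.94 ± 0.73 (adjusted p = 0.0312), and lost the call without any one of NKT 1, 2 or 3 (adjusted p 0.0715, 0.0812 and 0.0721) and with limma on cyclic-loess values (0.70, adjusted p = 0.542). Cd244a peak 3 was the one called over T, at 2.06 ± 0.59 (adjusted p = 0.0132), and its adjusted p was 0.0666 without T 2 and 0.0538 with limma on cyclic-loess values. Peak 3 held 2.79 CPM at the lowest, 13.3 at the median and 19.2 at the highest in mPTCL, 12.4, 21.1 and 4.76 CPM in NK, 6.40, 4.998 and 5.62 CPM in NKT and 3.20, 1.73 and 3.74 CPM in T libraries, so 1 mPTCL library fell among the T libraries. The other 4 Cd244a peaks were called in no comparison of mPTCL with a normal group. The one Cd244a peak of the smaller deposited table, which overlaps peak 4, was called higher than NKT there at 1.52 (adjusted p = 0.00523), against 0.89 ± 0.40 and adjusted p = 0.0686 for peak 4 in the larger table.

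Slamf7 encodes CRACC, a self-binding receptor that signals through EAT-2 in NK cells. Its 8 peaks summed to 80.17 CPM at the lowest, 124.7 at the median and 143.6 at the highest in mPTCL, to 79.96, 84.03 and 88.54 CPM in NK, to 188.7, 218.7 and 206.8 CPM in NKT and to 29.83, 45.55 and 55.63 CPM in T libraries. The mPTCL fell wholly below NKT and wholly above T, and overlapped NK at the low end. The log2 difference was -0.80 ± 0.17 over NKT (adjusted p = 0.000755) and 1.402 ± 0.21 over T (adjusted p = 2.84e-05). Over NK it was 0.48 ± 0.21 (adjusted p = 0.102), and it was called with scaling within chromosome 1 (0.76, adjusted p = 0.0109) and with limma on cyclic-loess values (0.53, adjusted p = 0.0396). From the promoter peak alone the calls over NKT and T ended (-0.81 and 1.15, adjusted p 0.135 and 0.101). NKT had the highest mean level, then mPTCL, NK and T. NK lay 0.92 above T (adjusted p = 0.0332), a call that ended without NK 2, NK 3, T 1 or T 2 in turn, with adjusted p of 0.0772, 0.107, 0.155 and 0.0817, and in the smaller table (0.70, adjusted p = 0.289).

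Slamf7 carried the 2 most open of the 25 peaks. Intronic peak 5 held 29.2 CPM at the lowest, 33.6 at the median and 50.4 at the highest in mPTCL, 29.0, 40.1 and 19.0 CPM in NK, 63.2, 97.8 and 88.5 CPM in NKT and 19.2, 25.96 and 29.4 CPM in T libraries. Peak 2, past the 3′ side of the gene, held 27.3 CPM at the lowest, 36.4 at the median and 57.9 at the highest in mPTCL, 12.4, 25.3 and 38.1 CPM in NK, 64.8, 80.9 and 80.3 CPM in NKT and 1.07, 9.52 and 10.8 CPM in T libraries. At both peaks all mPTCL lay below all NKT libraries, and at peak 2 all lay above all T libraries. Peak 5 was lower than NKT by a log2 difference of -1.21 ± 0.23 (adjusted p = 0.000173) and did not pass over T (0.52 ± 0.27, adjusted p = 0.172). Peak 2 was -1.05 ± 0.28 against NKT (adjusted p = 0.00426) and 2.24 ± 0.39 over T (adjusted p = 0.00013). The NKT call of peak 2 ended with scaling within chromosome 1 (-0.64, adjusted p = 0.0635), with RLE size factors (-0.60, adjusted p = 0.0778), with sparse peaks under a mean of 20 counts left out (-0.62, adjusted p = 0.0854) and with limma on cyclic-loess values (-0.43, adjusted p = 0.54), which also ended that of peak 5 (-0.51, adjusted p = 0.228).

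The Slamf7 promoter, peak 8, held 4.80 CPM at the lowest, 15.3 at the median and 23.0 at the highest in mPTCL, 0, 0 and 6.35 CPM in NK, 30.4, 37.9 and 38.6 CPM in NKT and 2.13, 10.4 and 11.2 CPM in T libraries. NK libraries held 4 counts there in all and 45 at intronic peak 5. The promoter was 2.50 ± 0.77 higher in mPTCL than in NK on the log2 scale (adjusted p = 0.0339), with 1 NK library inside the mPTCL range. That call ended without NK 1 (2.04, adjusted p = 0.108) and without NK 2 (1.998, adjusted p = 0.148), and its adjusted p was 0.0538 with only the 2 groups compared. Against NKT it was -1.34 ± 0.41 (adjusted p = 0.00967), with every mPTCL below every NKT library, but the call ended with each other scaling tried (-1.37 to -0.88, adjusted p 0.0514 to 0.11), DESeq2 and scaling within chromosome 1 (-0.96, adjusted p = 0.0514) included, with sparse peaks left out (adjusted p = 0.0909) and without NKT 2 or NKT 3 (adjusted p 0.0537 and 0.0524). Against NKT, peaks 1 and 3 were also lower, at -1.60 ± 0.45 and -1.42 ± 0.41; the first call ended without NKT 2 (adjusted p = 0.0554) and the second without NKT 1 (adjusted p = 0.0805), with RLE size factors (0.0539), with limma on cyclic-loess values (0.0601) and with sparse peaks left out (0.0563). Against T, peaks 1, 3 and 7 were higher at 2.05 ± 0.69, 1.69 ± 0.59 and 2.77 ± 0.92, with adjusted p of 0.0316, 0.0384 and 0.0306. These calls ended without T 1 (adjusted p 0.118, 0.0581 and 0.103) or T 2 (0.0843, 0.0816 and 0.112), those of peaks 1 and 3 also without T 3 (0.0514 and 0.214), and that of peak 3 without mPTCL 4 (0.0551). With limma on cyclic-loess values all 3 calls ended (adjusted p 0.15, 0.174 and 0.0673), and that of peak 1 ended with only the 2 groups compared (0.064). Slamf7 peaks 4 and 6 were called in no comparison of mPTCL with a normal group in the reported fit. In the smaller table, peaks that overlap 5 and 8 were not called against NKT (-0.60 and -0.75, adjusted p 0.0635 and 0.128) and were both called higher than T (1.12 and 1.55, adjusted p 0.0077 and 0.0207).

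**Figure D2:**
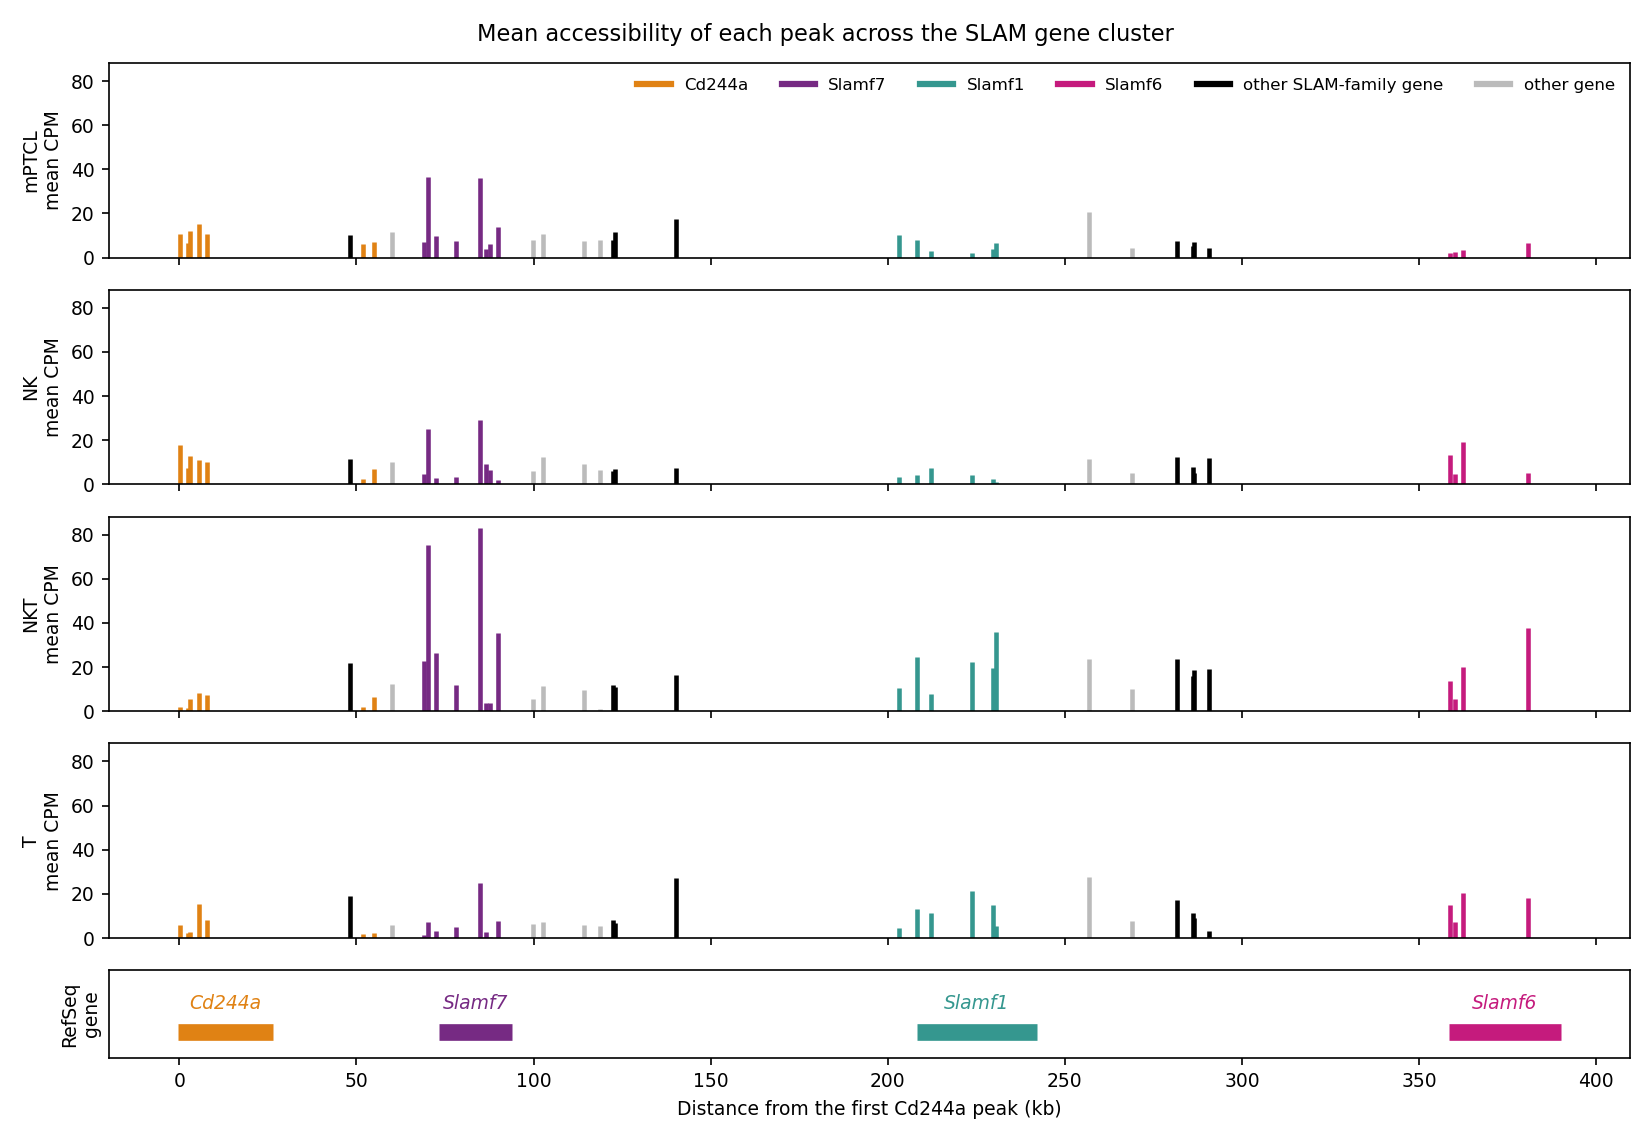
Mean CPM of the 40 peaks of the cluster in mPTCL, NK, NKT and T libraries, against distance in kb from the first Cd244a peak, with the RefSeq extent of each gene below. Bars are coloured by gene, black for other SLAM-family genes and grey for all remaining peaks, intergenic ones included. The tallest bars are Slamf7 peaks 2 and 5 in NKT, at means of 75.3 and 83.2 CPM.

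Slamf1 encodes SLAM (CD150), a self-binding receptor of T cells, thymocytes and macrophages. Its 6 peaks summed to 8.82 CPM at the lowest, 31.3 at the median and 50.8 at the highest in mPTCL, to 32.8, 17.2 and 19.0 CPM in NK, to 85.8, 96.3 and 99.2 CPM in NKT and to 57.9, 55.0 and 62.8 CPM in T libraries. Every mPTCL library was below every NKT and T library, and mPTCL enclosed NK. The log2 difference was -1.54 ± 0.28 against NKT (adjusted p = 0.000124) and -0.86 ± 0.30 against T (adjusted p = 0.0296). The second call ended with scaling within chromosome 1 (-0.60, adjusted p = 0.126), with limma on cyclic-loess values (-0.89, adjusted p = 0.0652), from the promoter peak alone (-0.35, adjusted p = 0.663) and without T 1, T 2 or T 3 in turn (adjusted p 0.0823, 0.0716 and 0.113). The call against NKT ended from the promoter peak alone (-1.13, adjusted p = 0.0799). Against NK the difference was 0.50 ± 0.40 (adjusted p = 0.396). NKT came first in order of level, then T, mPTCL and NK. Every NKT library lay above every T library, but the NKT over T difference of 0.68 was not called (adjusted p = 0.341).

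Slamf1 peak 4, in an intron, had the largest log2 differences from NKT and T of the 6. It held 0 CPM at the lowest, 2.29 at the median and 5.45 at the highest in mPTCL, 4.15, 8.43 and 0 CPM in NK, 15.99, 27.0 and 23.6 CPM in NKT and 22.4, 17.3 and 24.8 CPM in T libraries. All mPTCL and NK libraries lay below all NKT and T libraries there. The log2 difference was -3.37 ± 0.57 against NKT (adjusted p = 3.56e-05) and -3.31 ± 0.59 against T (adjusted p = 0.000161), and these calls stood under each alternative tried in the larger table. It was called lower in the smaller table as well, at -2.73 against NKT (adjusted p = 0.00242) and -2.77 against T (adjusted p = 0.00401).

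Slamf1 peak 6 gave a different order. It held 0 CPM at the lowest, 5.06 at the median and 16.8 at the highest in mPTCL, 0, 0 and 3.17 CPM in NK, 39.97, 28.5 and 38.8 CPM in NKT and 2.13, 6.92 and 7.01 CPM in T libraries. NKT stood above all other libraries, with no overlap, while mPTCL enclosed T. Against NKT the difference was -2.42 ± 0.47 (adjusted p = 0.000196) and against T 0.24 ± 0.61 (adjusted p = 0.801). Peak 5 was lower than both, at -2.32 ± 0.55 against NKT (adjusted p = 0.00155) and -1.90 ± 0.60 against T (adjusted p = 0.023), and the T call ended without T 1, T 2 or T 3 (adjusted p 0.192, 0.0699 and 0.0536) and with scaling within chromosome 1 (-1.63, adjusted p = 0.0589) or RLE size factors (-1.65, adjusted p = 0.0559). Peak 3 was lower than both as well, at -1.51 ± 0.60 and -2.07 ± 0.62; its NKT call ended when any one of the 12 mPTCL or NKT libraries was left out, and its T call when any T library was (adjusted p 0.0535 to 0.122). Scaling within chromosome 1 ended its NKT call as well (-1.09, adjusted p = 0.155), as did RLE size factors, library totals and DESeq2 (adjusted p 0.17, 0.13 and 0.079). In the smaller table peak 3 was called against neither NKT nor T (adjusted p 0.266 and 0.077). Peak 5 was called there against NKT (-1.69, adjusted p = 0.0376) but not against T (-1.39, adjusted p = 0.136). The promoter, peak 2, was -1.65 ± 0.46 against NKT (adjusted p = 0.00579) and -0.74 ± 0.52 against T (adjusted p = 0.315). Its NKT call ended with limma on cyclic-loess values (-1.88, adjusted p = 0.0631), with sparse peaks under a mean of 20 counts left out (-1.22, adjusted p = 0.0508) and in the smaller table (-1.02, adjusted p = 0.122). Peak 1, ahead of the gene, was called in no comparison of mPTCL with a normal group in the reported fit.

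Slamf6 encodes Ly108, a self-binding receptor of T and NK cells that shares the NKT developmental role. Its 4 peaks summed to 5.57 CPM at the lowest, 13.3 at the median and 32.0 at the highest in mPTCL, to 73.8, 21.6 and 31.6 CPM in NK, to 47.5, 72.2 and 60.1 CPM in NKT and to 57.0, 40.5 and 53.8 CPM in T libraries. Every mPTCL library was below every NKT and T library, and mPTCL 2 and mPTCL 9 reached the NK range. The log2 difference was -2.11 ± 0.33 against NKT (adjusted p = 2.67e-05) and -1.85 ± 0.35 against T (adjusted p = 0.000309). Against NK it was -1.59 ± 0.40 (adjusted p = 0.00603), and it was -0.94 (adjusted p = 0.17) without NK 1, the NK library with the highest Slamf6 value. Among NK, NKT and T no pair was called (NKT over T, adjusted p = 0.811; NK over T, 0.803; NK over NKT, 0.467).

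The Slamf6 promoter, peak 1, held 0 CPM at the lowest, 2.22 at the median and 4.28 at the highest in mPTCL, 12.4, 14.8 and 12.7 CPM in NK, 7.99, 14.5 and 18.9 CPM in NKT and 18.1, 11.3 and 15.0 CPM in T libraries. Every mPTCL library lay below every normal library. Of the 25 peaks it was the one called lower against all 3 normal groups whichever library was left out, at -2.54 ± 0.57 against NK (adjusted p = 0.00392), -2.63 ± 0.46 against NKT (adjusted p = 5.88e-05) and -2.69 ± 0.49 against T (adjusted p = 0.000203). Its largest adjusted p with a library left out was 0.0252 against NK, 0.00363 against NKT and 0.00769 against T.

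Peak 3, intronic, held 1.31 CPM at the lowest, 4.18 at the median and 8.29 at the highest in mPTCL, 41.5, 6.32 and 9.52 CPM in NK, 14.4, 23.8 and 21.8 CPM in NKT and 23.4, 17.3 and 21.0 CPM in T libraries. The difference was -2.52 ± 0.45 against NKT (adjusted p = 6.76e-05) and -2.54 ± 0.47 against T (adjusted p = 0.000248), with no overlap in either. The NK difference of -2.41 ± 0.54 (adjusted p = 0.00399) rested on NK 1, and without it was -1.14 (adjusted p = 0.317). Peak 4, exonic and the most 3′, held 2.18 CPM at the lowest, 5.58 at the median and 17.8 at the highest in mPTCL, 12.4, 0 and 3.17 CPM in NK, 33.6, 47.3 and 32.3 CPM in NKT and 19.2, 13.8 and 21.5 CPM in T libraries. It was -2.56 ± 0.45 against NKT (adjusted p = 5.68e-05) with no overlap. Its T difference of -1.51 ± 0.49 (adjusted p = 0.0279) overlapped at mPTCL 9 and lost its call under every other scaling tried (-1.65 to -1.23, adjusted p 0.058 to 0.0789). Scaling within chromosome 1 was among them (-1.25, adjusted p = 0.0715). The T call of peak 4 also ended with sparse peaks left out (0.0568) and in the smaller table (-0.98, adjusted p = 0.192). It ended without T 1, T 2, T 3 or mPTCL 6 as well (adjusted p 0.124, 0.0729, 0.138 and 0.0547). Peak 2 was called in no comparison of mPTCL with a normal group in the reported fit.

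**Figure D3:**
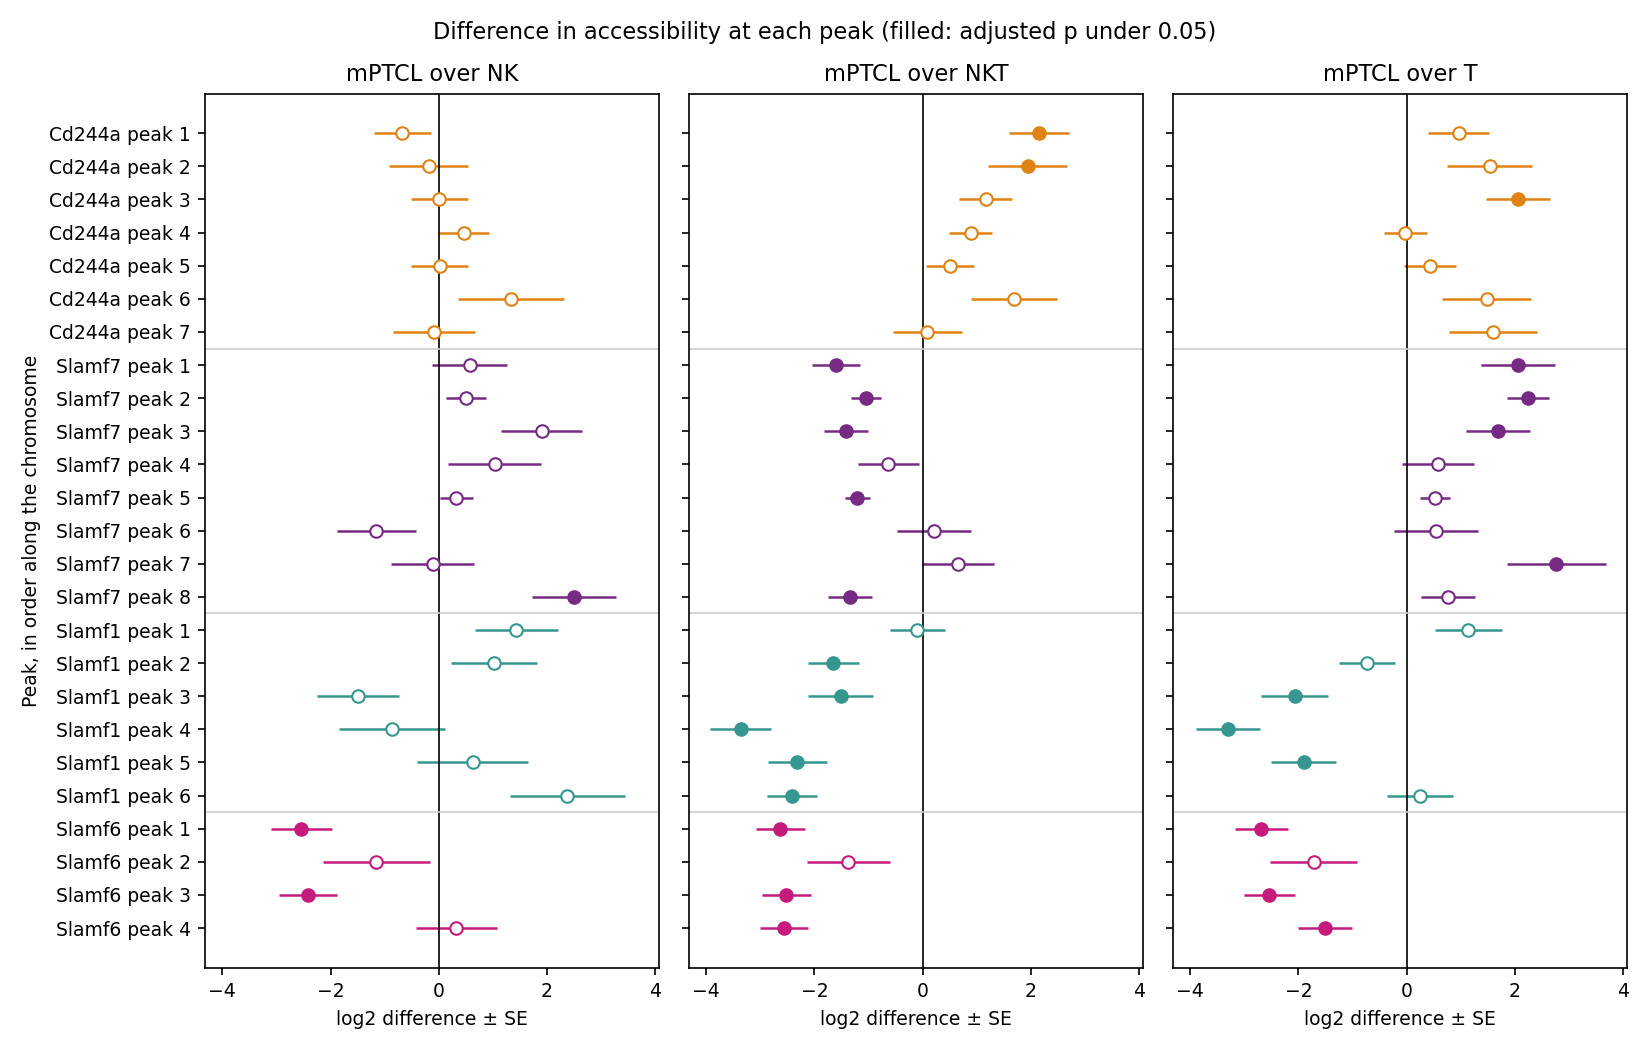
Log2 difference ± SE of each of the 25 peaks, listed in order along the chromosome, for mPTCL over NK, mPTCL over NKT and mPTCL over T. Filled circles have an adjusted p below 0.05; the called Slamf6 peaks lie between -2.69 and -1.51 in the 3 panels, and the called Slamf7 peaks lie left of 0 over NKT and right of 0 over T and NK.

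All 25 peaks passed the filter on low counts, which kept 61220 peaks. Against NKT, 2 of 25 were called higher in mPTCL and 13 lower, where 23.2% of all tested peaks were called higher and 19.4% lower. The median log2 difference was -1.21 over the 25 peaks and 0.27 over all. Against T, 5 were higher and 6 lower, where 8.27% and 11.4% of all peaks were called, and the medians were 0.54 and 0.26. Against NK, 1 was higher and 2 lower, where 6.03% and 3.76% were called, with medians of 0.32 and 0.30. By gene, the calls against NKT were 2 higher for Cd244a, 5 of 8 lower for Slamf7, 5 of 6 lower for Slamf1 and 3 of 4 lower for Slamf6. Against T they were 1 higher for Cd244a, 4 of 8 higher for Slamf7, 3 of 6 lower for Slamf1 and 3 of 4 lower for Slamf6. These comparisons share the mPTCL libraries.

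The split of calls shifted with the scaling. Shares of all peaks called were computed for the reported fit only, so the counts under other scalings have no background beside them. Against NKT it was 5 higher and 10 lower with TMM within chromosome 1, 5 and 9 with RLE size factors, 5 and 11 with library totals, 6 and 11 with DESeq2 and 1 and 9 with limma on cyclic-loess values, beside 2 and 13. Against T it was 6 and 4 with TMM within chromosome 1, 6 and 4 with RLE size factors and 8 and 5 with DESeq2; with limma on cyclic-loess values it was 2 and 6, beside 5 and 6. The median of all tested peaks moved too, for mPTCL over NKT to 0.74 with RLE size factors and with DESeq2, 0.64 with library totals and -0.02 with limma on cyclic-loess values, beside 0.27, and for mPTCL over T to 0.51, 0.52, 0.45 and 0.03, beside 0.26. Of the calls, 10 of 15 against NKT, 4 of 11 against T and 1 of 3 against NK stood with every library left out in turn. Leaving out T 1, T 2 or T 3 left 5, 4 or 6 calls against T.

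**Figure D4:**
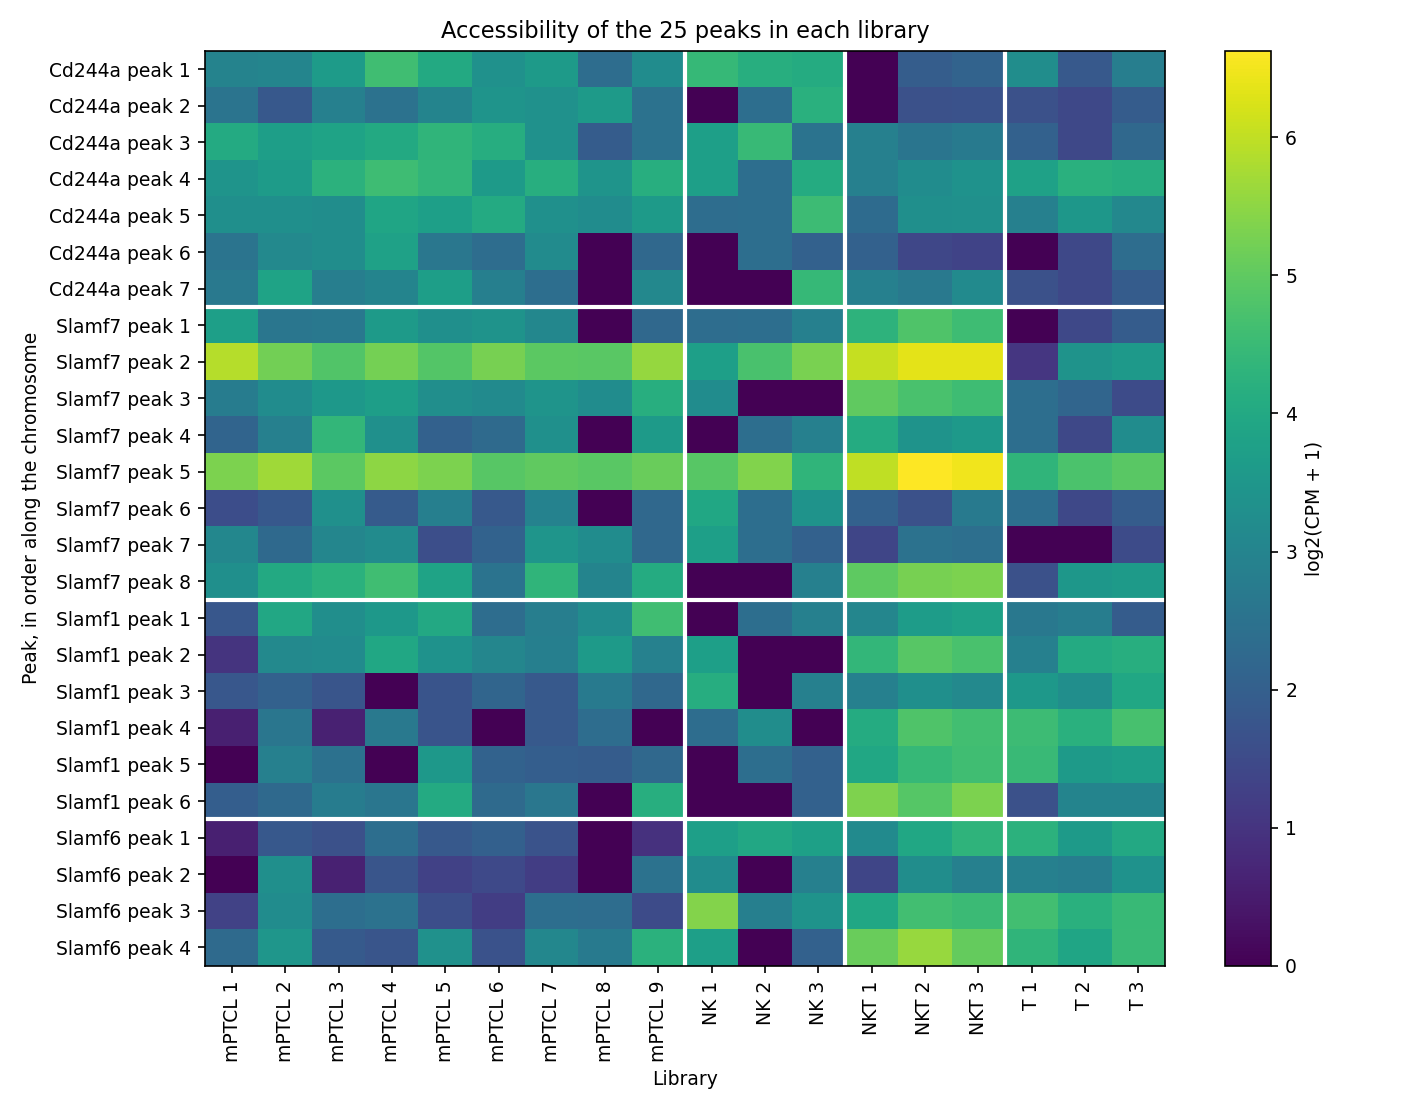
Accessibility of the 25 peaks, as log2(CPM + 1), in rows along the chromosome, for the 18 libraries in columns, with white lines between genes and between groups. The mPTCL columns are dark at Slamf1 peak 4 and Slamf6 peak 1, with medians of 2.29 and 2.22 CPM, and the NKT columns are brightest at Slamf7 peaks 2 and 5.

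Whether single peaks departed from the rest of their gene was tested with edgeR's exon-usage test, added after these values were seen. The same model was refitted to peaks with a symbol, each under a single symbol. The test covered 43903 peaks of genes with several peaks. Departures are given as natural logs, unlike the log2 differences above. Slamf1 peak 4 departed by -1.54 for mPTCL over T (adjusted p = 0.0177), and was the only one of the 25 peaks called there, where 3.26% of peaks were. It held 6.24% of Slamf1 counts in mPTCL, 16.7% in NK, 19.3% in NKT and 30.6% in T libraries. Over NKT its departure was -1.05 (adjusted p = 0.067) and that of the upstream Slamf1 peak 1 was 1.22 (adjusted p = 0.0587); no peak of the 4 genes was called over NKT, where 12.4% of peaks were, or over NK, where 0.469% were. At an unadjusted p below 0.05, 4 of the 25 passed over NKT and 4 over NK. For Slamf6, the departures of peaks 1, 3 and 4 over NKT were -0.12, -0.04 and -0.07.

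Ratios of counts between genes of the same library do not depend on scaling; they are given as a description, and were chosen after the values were seen. The Cd244a to Slamf6 ratio was 2.11 at the lowest, 5.94 at the median and 9.58 at the highest in mPTCL, 0.667, 2.6 and 3.15 in NK, 0.458, 0.366 and 0.491 in NKT and 0.524, 0.768 and 0.65 in T libraries. Every mPTCL library had a higher ratio than every NKT and T library, and mPTCL 2 and mPTCL 9 lay within the NK range. The Slamf7 to Slamf1 ratio was 1.99 at the lowest, 4.15 at the median and 14.6 at the highest in mPTCL, 2.44, 4.88 and 4.67 in NK, 2.2, 2.27 and 2.08 in NKT and 0.516, 0.829 and 0.886 in T libraries. There mPTCL stood above T without overlap and enclosed NKT.

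**Figure D5:**
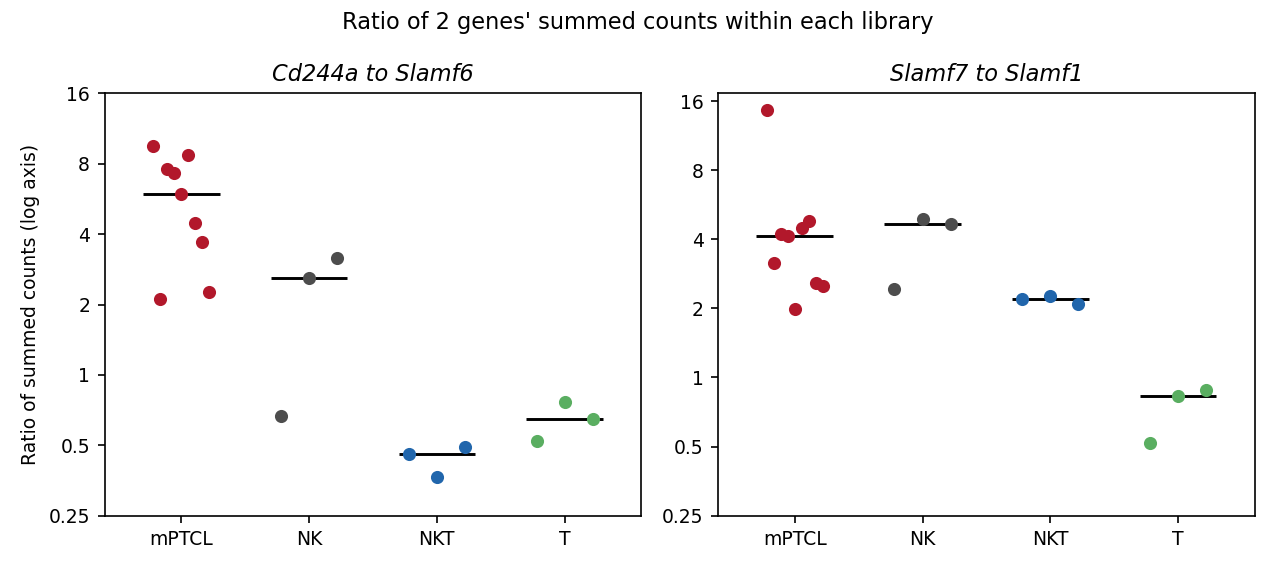
Ratio of summed counts, Cd244a to Slamf6 and Slamf7 to Slamf1, in each library on log axes, with black bars at group medians. The Cd244a to Slamf6 medians are 5.94 in mPTCL, 2.6 in NK, 0.458 in NKT and 0.65 in T libraries.

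The normal groups differed among themselves as well, with most NKT differences at Slamf7. Between NKT and T cells 6 of the 25 peaks were called higher in NKT and 0 lower, where 3.48% and 1.75% of all peaks were. These were Slamf7 peaks 1, 2, 3, 5 and 8 and Slamf1 peak 6, at log2 differences of 1.73 to 3.66. At an unadjusted p below 0.05, 0 peaks were lower in NKT than in T, and DESeq2 called 6 higher and 0 lower. The calls at Slamf7 peak 8 and Slamf1 peak 6 ended without T 1 (adjusted p 0.174 and 0.122) and with most other single libraries left out, and the other 4 stood with every library left out. Between NK and NKT cells 1 was higher and 9 lower in NK, where 6.81% and 10.3% of all peaks were. The higher one was the Cd244a promoter, at 2.82 ± 0.68 (adjusted p = 0.00538), and the lower ones included the Slamf7 promoter at -3.85 ± 0.80 (adjusted p = 0.00164). Slamf1 peak 6 was among the lower ones with 2 counts in all in the NK libraries. With RLE size factors the split was 2 and 5 and with DESeq2 3 and 7, and without NK 2 or NK 3 the calls numbered 6 and 5. The calls at Cd244a peak 1, Slamf7 peaks 3 and 8 and Slamf1 peak 6 stood with every library left out. Between NK and T cells 1 was higher, Slamf7 peak 2 (1.74 ± 0.48, adjusted p = 0.032), and 0 lower, where 2.02% and 2.77% were; the call ended without NK 2, NK 3, T 1 or T 2 in turn (adjusted p 0.0707, 0.18, 0.1 and 0.0512). At an unadjusted p below 0.05, 4 peaks were lower in NK than in T, and DESeq2 called 4 higher and 0 lower.

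Of the receptor genes examined, Slamf1 and Slamf6 varied most among the lymphomas, and they held the fewest counts there. The mPTCL libraries together held 801 counts at Slamf1 and 337 at Slamf6, against 1845 at Cd244a and 3045 at Slamf7. How much of the spread came from low counts was not tested. The SD of log2 CPM over the 9 mPTCL was 0.752 for Slamf1 and 0.747 for Slamf6, against 0.419 for Cd244a, 0.272 for Slamf7 and a median of 0.439 over all genes. The mPTCL with the lowest Slamf1 sum, mPTCL 1 at 8.82 CPM, also had the lowest Slamf6 sum at 5.57 CPM. The highest Slamf6 sums were in mPTCL 2 and mPTCL 9, at 32.0 and 23.2 CPM, where Slamf1 reached 43.6 and 49.9 CPM. At Slamf7, the mPTCL with the lowest sum was mPTCL 8, which had the lowest Cd244a sum as well. That library was also the shallowest of the mPTCL, at 670358 total counts.

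Among the other receptors of the family, Cd84, a self-binding receptor of T and B cells, was lower in mPTCL than in NKT. Its 4 peaks summed to 8.87 CPM at the lowest, 21.96 at the median and 36.1 at the highest in mPTCL, and averaged 37.4 ± 8.79 CPM in NK, 60.4 ± 10.3 CPM in NKT and 33.6 ± 1.53 CPM in T libraries (SD, n = 3 each). The difference was -1.34 ± 0.30 against NKT (adjusted p = 0.00103). Slamf8, a receptor of macrophages with 1 peak, was 1.82 ± 0.68 higher in mPTCL than in NKT (adjusted p = 0.0298), at means of 7.15 ± 2.40 CPM in mPTCL and 2.13 ± 0.49 CPM in NKT. Cd48, the ligand of Cd244a, averaged 35.7 ± 10.4 CPM in mPTCL, 20.4 ± 14.7 in NK, 30.3 ± 8.70 in NKT and 34.9 ± 9.10 CPM in T libraries and was not called. Ly9 was not called either (-0.21 ± 0.38 against NKT, adjusted p = 0.666). No gene of these 4 was called against T or NK; at an unadjusted p below 0.05, Slamf8 passed over T (0.0448) and Cd48 over NK (0.0337). Slamf9 was not analysed here. In the stretch between the outermost of the 25 peaks, 7 peaks of other annotation lay among 33 of SLAM-family genes, and 1 of the 7 was called, higher in mPTCL than in NKT.

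Of 17 measured SLAM adaptor and signalling genes, 5 were higher and 8 lower in mPTCL than in NKT. Against T 3 were higher and 2 lower, and against NK 2 and 1. Of all genes tested, 25.5% were called higher and 20.2% lower against NKT. Those shares were 16.2% and 14.7% against T and 11.2% and 10.3% against NK. The median log2 differences of the 17 genes were -0.30, 0.09 and -0.13, where those of all genes were 0.06, 0.12 and 0.13. Sh2d1b1, which encodes EAT-2, had the largest change of these against NKT and T, at 4.42 ± 0.86 over NKT (adjusted p = 0.000266) and 3.18 ± 0.86 over T (adjusted p = 0.00667), from 1 peak with 208 counts in mPTCL, 28 in NK, 5 in NKT and 4 in T libraries. Over NK it was -1.22 ± 0.60 (adjusted p = 0.144). Lat2, an adaptor of B, NK and myeloid cells, was 2.81 ± 0.39 over NKT (adjusted p = 7.71e-06) and 2.01 ± 0.39 over T (adjusted p = 0.000467). Lat, the T-cell adaptor, was 1.14 ± 0.39 over NK (adjusted p = 0.0351), and Prkcq, the kinase PKC theta, was -0.61 ± 0.18 against NK (adjusted p = 0.0178). Sh2d1a was not analysed here. Of 8 genes of the innate-like T lineage, 2 were higher and 4 lower than in NKT, 2 and 2 than in T, and 2 and 3 than in NK. Zbtb16, the NKT transcription factor PLZF, was -2.27 ± 0.37 against NKT (adjusted p = 4.56e-05) and -2.50 ± 0.42 against NK (adjusted p = 0.000149). Il17rb, a receptor of IL-25, was 2.74 ± 1.05 over NKT (adjusted p = 0.0348) from 82 counts in mPTCL and 13 in NKT. Il4, a cytokine gene, was 2.04 ± 0.36 over T (adjusted p = 0.000165) and 1.97 ± 0.43 over NK (adjusted p = 0.00182), and Klrb1c, an NK receptor gene, was 1.57 ± 0.47 over T (adjusted p = 0.0123).

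Markers of other cells moved with these comparisons, and their part in the SLAM results was not tested. The shares of all genes called, given above, apply to the marker counts as well. Of 8 T-cell genes, 1 was higher and 4 lower than in NKT, 0 and 3 than in T and 1 and 0 than in NK; Cd4 was -5.17 and Cd8a 2.97 against NKT, Cd4 -2.08 and Cd5 -1.94 against T, and Cd3e 2.55 over NK. The 5 measured NK genes Ncr1, Klrb1c, Eomes, Klre1 and Tyrobp were all higher than in NKT (0.77 to 4.50); 4 were higher than in T, where Eomes was 0.78 (adjusted p = 0.0899), and Tyrobp was lower than in NK (-1.14). Of the NKT genes, Zbtb16 and Cd3e were lower and Il17rb higher than in NKT, none was called against T, and Cd3e was higher and Zbtb16 lower than in NK. Of 4 B-cell genes Cd79b, Pax5 and Blk were higher than in NKT (1.49 to 2.49) and Cd79b, Blk and Cd22 higher than in T (1.62 to 1.98), with none called against NK. Their sum was 61.06 to 138.6 CPM in mPTCL, 56.02 to 114.8 in NK, 14.52 to 28.46 in NKT and 25.31 to 49.17 CPM in T libraries. Of 5 myeloid genes Cd68 and Spi1 were higher than in NKT and T, Clec4f, Cd14 and Itgam were not called, and the sums were 100.6 to 143.5, 102.8 to 159.9, 54.11 to 66.96 and 59.66 to 69.91 CPM in the same groups. The hepatocyte genes G6pc, Hnf4a and Cps1 were all higher than in NKT (1.76 to 2.84), G6pc alone than in T, and none than in NK; they summed to 36.11 to 80.34, 20.5 to 63.24, 3.959 to 14.41 and 13.56 to 24.06 CPM. Of the plasmacytoid genes Tcf4 was lower than in NKT, T and NK (-1.75, -2.61 and -2.53) and Bst2 was not called.

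Over all 18 libraries, the log2 CPM of other genes followed the 4 receptors closely in places, given as a description among 17555 candidates; libraries of a group share their cell type and depth. Cd244a was matched most closely by Bco1, Dnah5 and P2rx1 (Pearson r of 0.918, 0.912 and 0.905). Slamf7 was matched by Gm15511, Ifng and Gm19596 (0.93, 0.909 and 0.889), where within the 9 mPTCL the r of Ifng, the interferon gamma gene, was -0.354. Slamf1 was matched by Themis, a T-cell signalling gene, and Cd4, the helper T-cell coreceptor (0.852 and 0.847). Slamf6 was matched by Gm23567, Tra2a and 1700019C18Rik (0.938, 0.9 and 0.895).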

How the data were processed

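Chromatin accessibility was measured by ATAC-seq on 10000 sorted cells per library in 18 libraries. The authors deposited raw counts per 500 bp peak and log2 CPM, per the file headers; peaks, scaling and coordinates rest on MACS2 2.1.2, bedtools, edgeR 3.24.3 and mm10, per the submitters' processing notes. Nothing used here states which aligner or duplicate filter they ran, or what selected the peaks of each table. No pair of libraries within a group agreed within sampling noise. Here the counts were scaled by TMM and tested with edgeR 4.0.16 (R 4.3.3) in one quasi-likelihood fit of 4 groups without a replicate block, after filterByExpr (61220 peaks kept), with Benjamini-Hochberg adjustment, two-sided, at 0.05. Gene sums added the counts of all peaks with a symbol (20326 genes), and a peak with several symbols counted for each. They were scaled by their own TMM factors. The steps were tested on simulated data. Alternatives used DESeq2 1.42.0, limma 3.58.1, other scalings and filters, the smaller deposited table and each library left out. Groups came from the labels. The 4 genes and the gene lists were chosen with earlier results of these data known. Named were all peaks of the 4 genes, the other receptors, list genes by size of change (whole lists where fewer than 6 were measured), and the 3 genes most alike, of which 1 is not reported here. Peak sequences and motifs in peaks, planned, were not analysed here, and promoters were used instead. Counts in peaks set the precision, and NK libraries were the shallowest.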

Additional observations from a re-analysis of the deposited data

Results flagged for a closer look

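Of 29 member peaks and gene sums examined for a single far value among the 9 mPTCL, 1 stood out: Slamf6 peak 3 in mPTCL 2, at 8.292 CPM, where the others ran from 1.309 to 4.673 CPM. Chance flags about 1 in 20 such groups. Without mPTCL 2 the calls of this peak against NKT and T stood.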

How the results depend on the processing

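Shares of all peaks called were not computed for the alternatives. The number of SLAM peaks called stayed within 1.5 times of the reported one except as follows. For NK over NKT, 10 as reported, it was 6 with library totals, 4 with sparse peaks under a mean of 20 counts left out, 6 with only the 2 groups compared and 1 in the smaller table. For NK over T, 1 as reported, it was 4 with DESeq2, 4 with limma on cyclic-loess values and 0 in the smaller table. The smaller table, with 11 such peaks, gave 2 for NKT over T, 6 for mPTCL over NKT and 5 for mPTCL over T, and limma on cyclic-loess values gave 5 for mPTCL over NK. With each library left out in turn the counts ran from 5 to 8 for NK over NKT, 0 to 2 for NK over T, 4 to 5 for NKT over T, 2 to 3 for mPTCL over NK, 11 to 17 for mPTCL over NKT and 4 to 12 for mPTCL over T. The Slamf7 gene sum of NK over T, 0.92 as reported, was -1.352 from its promoter peak alone (adjusted p = 0.454). That peak, Slamf7 peak 8, held 4 counts in all in NK and 38 in T libraries. The causes of these changes were not tested. Fits on gene sums in the smaller table and with a block were chosen after seeing the data. Replicate numbers are not stated to pair the normal libraries: same-numbered libraries deviated together with r of -0.0369 to 0.0465, and 4, 3 and 2 of 6 libraries correlated best with their own number. With the replicate block on the 9 normal libraries, calls were 7 for NK over NKT, 1 for NK over T and 6 for NKT over T, and the Slamf1 gene sum of NK over T became called (-1.31, adjusted p = 0.0118). No block was possible with mPTCL, whose labels carry no shared numbers. NK depth limits every comparison with NK.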
